A study of Rattus norvegicus with 7 samples.

Results

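The circadian clock of rat colon crypts was read from 10 genes named beforehand by symbol: Arntl and Clock, the activators; Per1, Per2, Per3, Cry1 and Cry2, the repressors that act on them; Nr1d1 and Nr1d2, which encode the REV-ERB receptors; and Dbp, an output gene. Of these, 9 stand in the expression table of 16468 genes, and all 9 reached 1 FPKM or more in 1 library, the level at which 9847 genes were taken as measured. FPKM counts sequenced fragments per length of transcript and per size of library. Nr1d2 was not analysed here. The material was crypts, the epithelial pits of the gut wall, isolated from the distal colon and from the proximal colon of 14-week-old Sprague Dawley rats, which are outbred laboratory animals. The labels give no genotype, agent or treatment, and both regions share strain and age. The RNA of each region was sequenced as 1 library pooled from 7 rats, so there is no spread between replicates, and the differences below compare these 2 libraries with no replicate check and no test. The sources used here give neither the hour at which tissue was taken nor whether both ends of the colon came from the same rats. A single pooled library per region shows 1 moment of a rhythm and holds no phase or amplitude.

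The mammalian clock is a feedback loop of transcription. ARNTL (also called BMAL1) pairs with CLOCK or its paralogue NPAS2, binds E-box sequences and switches on the Per and Cry genes, whose proteins then return to the nucleus and repress the pair. The same activators drive Nr1d1 and Nr1d2, whose receptors repress Arntl through sites shared with the ROR receptors, and Dbp, which with Tef and Hlf activates genes that hold a D-box, where NFIL3 represses. In the gut the clock is known to run in epithelial cells and to respond to feeding and to glucocorticoid hormone.

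Sequence motifs known from these loops were found in the promoters of 4 members, Arntl, Per2, Cry2 and Nr1d1, which are shown so that the letters can be read beside the expression values. Promoters were taken from RefSeq on the GRCr8 build, as 250 bases before and 50 after each start, for 11 starts of 9 members, with Cry1 not among them. Capitals mark the motif. In Arntl it is TAGGTCA, the core bound by REV-ERB and ROR receptors, 16 bases before the start. In Per2 it is the D-box TTATGTAA at 192 bases and the E-box variant CACGTT at 62 bases before the start. In Cry2 the E-box variant lies on the opposite strand at 212 bases before the start, and in the upstream start of Nr1d1, likewise on the opposite strand, at 174 bases, so that both read AACGTG here. The downstream start of Nr1d1 has the E-box CACGTG at 191 bases before it. The stretches are, in that order, chr1:176766288-176766342 on the plus strand, and chr9:99497026-99497209, chr3:98860620-98860673, chr10:84231957-84232010 and chr10:84229616-84229669 on the minus strand.
Arntl: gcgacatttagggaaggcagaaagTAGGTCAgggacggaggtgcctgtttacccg
Per2: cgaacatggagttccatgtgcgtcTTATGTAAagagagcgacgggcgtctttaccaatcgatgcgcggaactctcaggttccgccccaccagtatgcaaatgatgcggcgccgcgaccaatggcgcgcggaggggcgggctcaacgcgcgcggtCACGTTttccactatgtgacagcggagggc
Cry2: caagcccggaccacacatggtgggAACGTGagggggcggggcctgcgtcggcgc
Nr1d1 (upstream start): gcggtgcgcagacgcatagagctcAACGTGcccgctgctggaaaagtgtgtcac
Nr1d1 (downstream start): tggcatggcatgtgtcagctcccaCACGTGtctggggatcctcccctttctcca

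Of 33469 promoters of this length in the RefSeq table, 6.42% held CACGTG, 4.83% CACGTT, 0.893% TTATGTAA and 2.63% TAGGTCA on either strand. TGGGTCA, a second form of the receptor core (4.09%), and TTACGTAA, a second D-box (0.12%), were searched too and were in none of the members' promoters. No matches overlapped. The promoters of Clock, Per1, Per3, Nr1d2 and Dbp held none of these letters in this window. At least 1 of the 6 motifs was in 5 of the members' 11 promoters and in 17.7% of all promoters of this length. The matches describe the sequence and no binding was measured.

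All 9 clock genes were expressed at both ends of the colon and none was 2-fold apart, while 7 of the 9 stood somewhat higher in the distal library. The exceptions were Clock, which was lower in the distal library, and Nr1d1, which was nearly level. On the log2 scale of distal over proximal with 1 FPKM added to each value, which understates differences of low genes, no member reached a ratio of 1 or -1. Among all 9847 measured genes 3.71% were 2-fold or more higher and 3.91% at least 2-fold lower in the distal library on this scale, so a count of 0 among 9 genes is near the background. The share of all measured genes that were higher in the distal library by any amount was 61.4%, against which the 7 of 9 are to be read. The median log2 ratio of the 9 members was 0.44 and that of all measured genes 0.09. The authors' deposited table called none of the 9 significant, while it called 5.43% of the 10100 rows it tested. In bulk RNA of this kind, fewer cells of a type and less RNA per cell cannot be told apart.

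**Figure D1:**
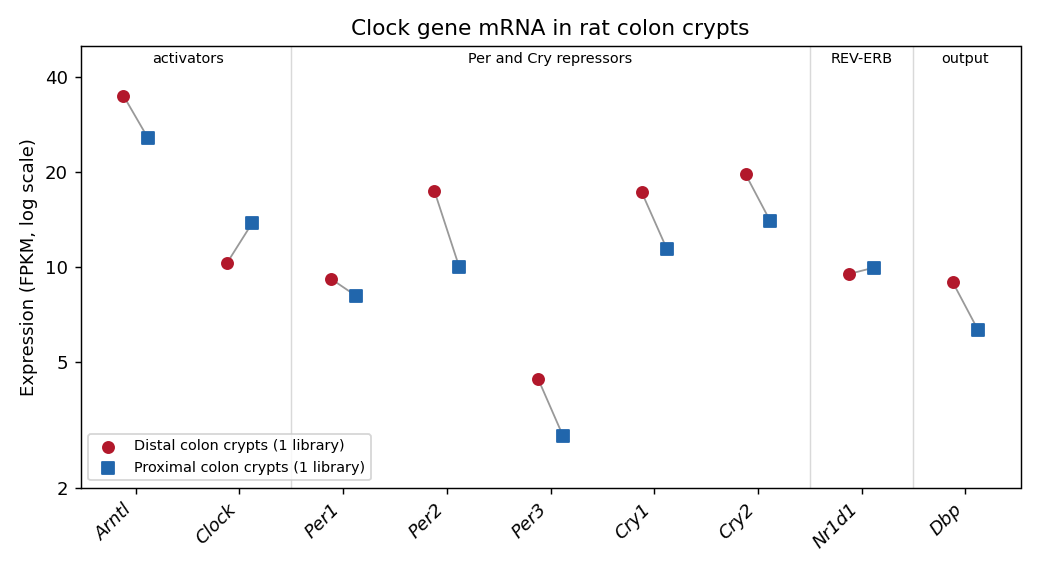
Expression of the 9 clock genes in FPKM on a log axis, with distal colon crypts as circles to the left and proximal colon crypts as squares to the right for each gene, 1 library of 7 pooled rats each. Distal values lie above proximal ones for every gene except Clock and Nr1d1, and Arntl is the most highly expressed at both ends.

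Arntl, the activator that the loop cannot do without, stood at 34.8 FPKM in distal and 25.5 FPKM in proximal crypts. It was the most highly expressed member in both, within the top 27.3% of measured genes in distal and the top 32.8% in proximal crypts. The distal value was 1.37-fold the proximal one, and the log2 fold change in the authors' deposited table was 0.45, with a standard error of 0.29 implied by its test statistic. That error rests on the model used for that table, with no rat-to-rat variation in it. On the rn4 build, which all loci below use, Arntl lies on chromosome 1 at 171062181 to 171162426.

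Clock, which encodes the partner of ARNTL, went the other way, at 10.3 FPKM in distal and 13.7 FPKM in proximal crypts. The proximal value was 1.33-fold the distal one, and the authors' deposited table gave -0.42 on the log2 scale with an implied standard error of 0.37. Clock lies on chromosome 14 at 34218472 to 34258054. The messages of the 2 partners thus stood at a ratio of Arntl to Clock of 3.39 in distal and 1.86 in proximal crypts. Their log2 fold changes in the authors' deposited table lay 0.87 apart, against a combined implied standard error of 0.47. This pair was picked out because its members act as a dimer, and the gap was not tested.

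Per2, a repressor whose loss disturbs the daily rhythm in mice, was the member furthest apart, at 17.4 FPKM in distal and 9.97 FPKM in proximal crypts. The distal value was 1.74-fold the proximal one. In the authors' deposited table its log2 fold change was 0.80, the implied standard error 0.30 and the q 0.110, and it was not called. Of 3802 genes within 2-fold of the mean level of Per2, 8.26% were at least as far apart in either direction. Per2 was also the single member higher in distal crypts by 1.5-fold or more on the log2(FPKM + 1) scale, where 9.19% of all measured genes were. It lies on chromosome 9 at 90645342 to 90687509.

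The other period genes differed less. Per1, which also answers directly to glucocorticoid and cAMP signals, stood at 9.17 FPKM in distal and 8.11 FPKM in proximal crypts, a 1.13-fold difference with 61.3% of genes of like level at least as far apart. Per3, a weaker member of the family, stood at 4.42 FPKM in distal and 2.92 FPKM in proximal crypts. Its plain ratio was 1.51, and with the lowest level of the 9 it had a wide implied standard error of 0.49 around the log2 fold change of 0.60 in the authors' deposited table. The ratio of Per2 to Per1 was 1.89 in distal and 1.23 in proximal crypts. Per1 lies on chromosome 10 at 55859851 to 55868747 and Per3 on chromosome 5 at 168152693 to 168187442.

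The cryptochrome genes, which encode the main repressors of the CLOCK and ARNTL pair, differed by nearly the same factor. Cry1 stood at 17.2 FPKM in distal and 11.4 FPKM in proximal crypts (1.51-fold), and Cry2 at 19.6 FPKM in distal and 13.9 FPKM in proximal crypts (1.41-fold). The authors' deposited table gave log2 fold changes of 0.59 for Cry1 and 0.50 for Cry2, with implied standard errors of 0.35 and 0.36 and q values of 0.575 and 0.775. The ratio of Cry1 to Cry2 was 0.875 in distal and 0.820 in proximal crypts, so Cry2 was the more abundant message at both ends. Of genes of like level, 13.2% were at least as far apart as Cry1 and 17.2% as far as Cry2. Cry1 lies on chromosome 7 at 20643879 to 20709216 and Cry2 on chromosome 3 at 76802782 to 76830902.

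Nr1d1, which encodes REV-ERB alpha, stood at 9.50 FPKM in distal and 9.94 FPKM in proximal crypts. This was the smallest difference among the 9, and 84.3% of genes of like level were at least as far apart. In the table Nr1d1 shares its locus, on chromosome 10 at 87514443 to 87548186, with Thra, a thyroid hormone receptor gene that it overlaps on the opposite strand. Thra stood at 26.2 FPKM in distal and 21.8 FPKM in proximal crypts. The sources used here do not say whether the counting used strand, so reads of the 2 genes may be mixed. The implied standard error of Nr1d1 was 0.58, the widest of the 9.

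Dbp, whose protein activates D-box genes and whose message is among the most strongly rhythmic in many tissues, stood at 8.92 FPKM in distal and 6.33 FPKM in proximal crypts. The distal value was 1.41-fold the proximal one, with an implied standard error of 0.52 around the log2 fold change of 0.49 in the authors' deposited table. Dbp lies on chromosome 1 at 96173573 to 96178485.

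**Figure D2:**
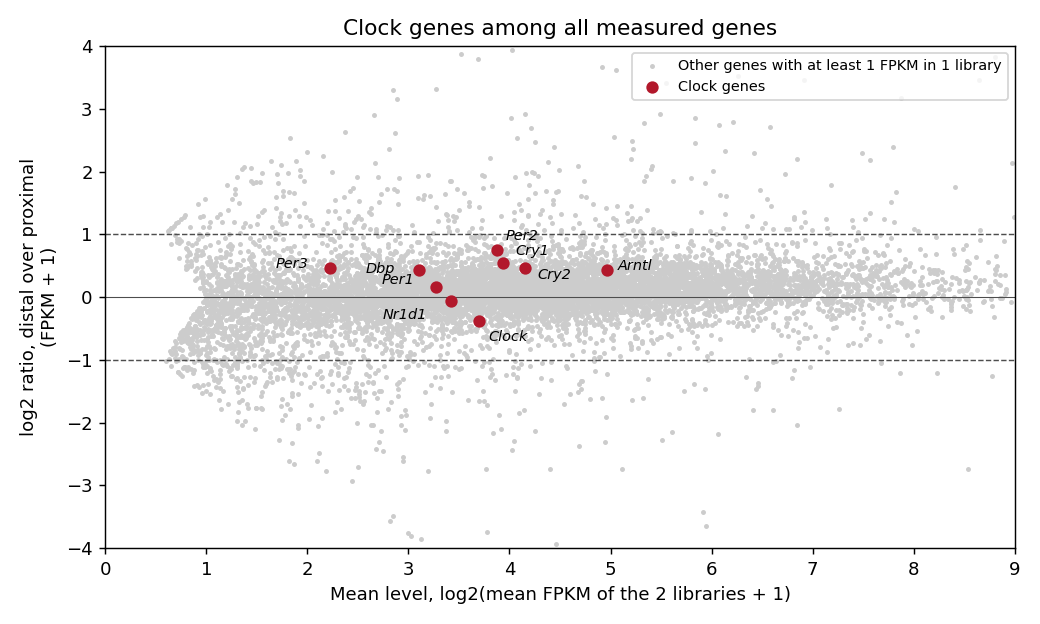
Log2 ratio of distal over proximal, with 1 FPKM added to each value, against the mean level of each gene on a log2 scale, for the 9 clock genes and all other measured genes; 136 genes lie outside the plotted range. All clock genes lie inside the dashed lines at 2-fold, with Per2 highest at 0.74 and Clock lowest at -0.38.

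Activators and repressors differed in their median. The Per, Cry and Nr1d1 genes had a median log2 ratio of 0.47 over 6 genes, beside 0.09 over all measured genes. Of these 6, 5 were higher in distal crypts, beside 61.4% of all measured genes. Arntl, at 0.44, lay near the repressor median and Clock lay at -0.38, with a median of 0.03 between them. The activator median thus lay 0.44 below the repressor median. The median implied standard error of a single member, 0.36, is close to this gap, which rests on 2 activators of opposite direction and was not tested. With Dbp counted as an activator the difference was -0.032. Summed FPKM values showed the same arrangement of the arms. Per and Cry messages summed to 67.8 FPKM in distal and 46.4 FPKM in proximal crypts (1.46-fold), and Arntl and Clock to 45.1 FPKM in distal and 39.2 FPKM in proximal crypts (1.15-fold). The ratio of the Arntl and Clock sum to the Per and Cry sum was 0.666 in distal and 0.845 in proximal crypts. Npas2, whose protein can take the place of CLOCK, is in neither the activator median nor these sums. It stood at 49.3 FPKM in distal and 20.8 FPKM in proximal crypts. Clock and Npas2 together were 1.72-fold higher in distal crypts, a larger factor than that of Per and Cry. The arrangement of the arms therefore holds for Arntl and Clock alone, with Npas2 left out.

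The order of levels was largely shared by the ends of the colon. In the distal library it ran Arntl, Cry2, Per2, Cry1, Clock, Nr1d1, Per1, Dbp and Per3, and in the proximal library Arntl, Cry2, Clock, Cry1, Per2, Nr1d1, Per1, Dbp and Per3. Per2 and Clock exchanged places, and the other 7 genes kept theirs. With 1 library per region there is no spread by which neighbours in this order could be separated. Several lie close together, such as Per2 and Cry1 at 17.4 and 17.2 FPKM in the distal library, and Per2 and Nr1d1 at 9.97 and 9.94 FPKM in the proximal library.

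Among other genes of the clock loops, Npas2, Arntl2 and Bhlhe40 were at least 2-fold higher in distal crypts on the log2(FPKM + 1) scale. Of 13 such genes listed, 9 stand in the table and 7 were measured. Thus 3 of 7 were higher by that much and none lower, where 3.71% and 3.91% of all measured genes were. On this scale Bhlhe40, at 1.01, lay just past the limit, and Tef, at 0.93, just below it. The median log2 ratio of the 7 was 0.93 and fell to 0.49 with a pseudocount of 5 FPKM. The list was chosen with earlier results of these data known, so its count is a description. Npas2, which encodes the paralogue of CLOCK and can take its place beside ARNTL, stood at 49.3 FPKM in distal and 20.8 FPKM in proximal crypts (2.37-fold). The authors' deposited table called it, at a q of 0.00141, the log2 fold change being 1.24 and its implied standard error 0.30. Npas2 was more abundant than Clock in both libraries, at a ratio of 4.79 in distal and 1.52 in proximal crypts. The log2 fold changes of Npas2 and Clock in that table lay 1.66 apart, with a combined implied standard error of 0.47. Together Clock and Npas2 summed to 59.6 FPKM in distal and 34.5 FPKM in proximal crypts.

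Arntl2, the paralogue of Arntl, stood at 5.65 FPKM in distal and 1.58 FPKM in proximal crypts (3.58-fold), and the authors' deposited table did not call it (q 0.116, implied standard error 0.70). Arntl was thus 6.17 times as abundant as Arntl2 in distal and 16.2 times in proximal crypts. Bhlhe40, which encodes the E-box repressor DEC1, stood at 45.9 FPKM in distal and 22.4 FPKM in proximal crypts (2.05-fold) and was called by that table at a q of 0.0158. Of these genes' promoters, that of Arntl2 holds CACGTT on the opposite strand at 168 bases before the start and that of Bhlhe40 holds CACGTG at 220 bases. The promoter of Tef holds CACGTG at 198 bases, that of Ciart holds it at 93, 35 and 21 bases, and those of Npas2, Nfil3, Rora, Timeless and Tipin held none of the motifs searched.

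D-box factors stood in opposite directions. Tef, an activator like Dbp, stood at 5.19 FPKM in distal and 2.26 FPKM in proximal crypts (2.30-fold), and Nfil3, the repressor of the same sites, at 13.4 FPKM in distal and 23.4 FPKM in proximal crypts (1.75-fold higher in the proximal library). The authors' deposited table called neither, with q values of 0.165 and 0.249. The ratio of Dbp to Nfil3 was 0.665 in distal and 0.270 in proximal crypts, and that of Tef to Nfil3 was 0.387 in distal and 0.0964 in proximal crypts. Timeless, at 4.03 and 3.55 FPKM in distal and proximal crypts, and its partner Tipin, at 6.87 and 4.51 FPKM in distal and proximal crypts, act in DNA replication checkpoints. Rora, an activator of Arntl, stood at 0.273 FPKM in distal and 0.641 FPKM in proximal crypts, and Ciart, a repressor of the loop found in the table under an older symbol, at 0.273 FPKM in distal and 0.325 FPKM in proximal crypts, both too low for a fold. Rorb, Bhlhe41 and Hlf were not analysed here.

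**Figure D3:**
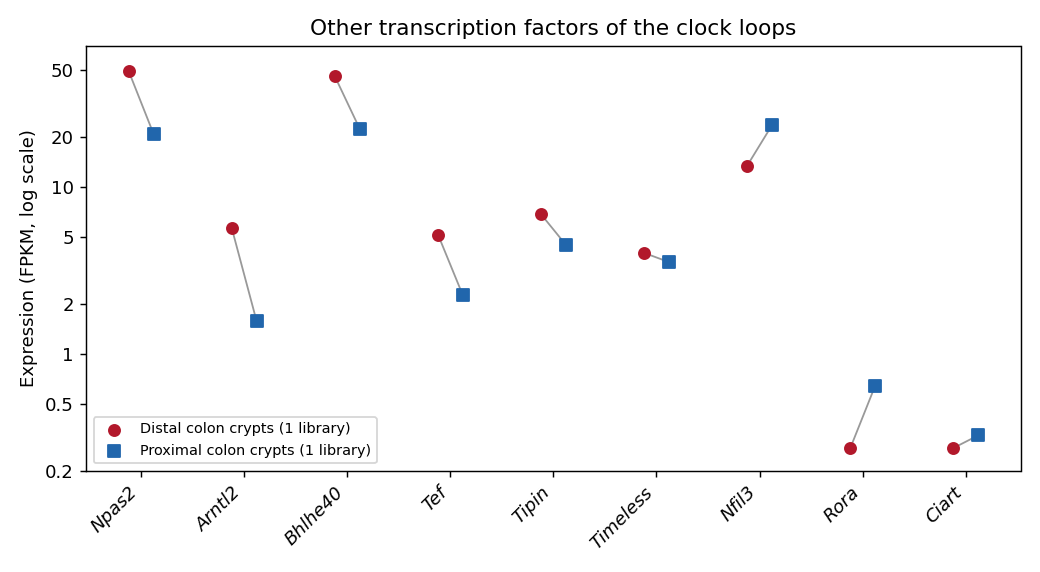
Expression in FPKM on a log axis of the 9 other loop factors in the table, distal colon crypts as circles to the left and proximal colon crypts as squares to the right, 1 library each. Npas2, Arntl2, Bhlhe40 and Tef lie higher in the distal library and Nfil3 in the proximal library.

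Among enzymes that modify clock proteins, Prkaa1 was the furthest apart. It encodes a catalytic subunit of AMP-activated protein kinase, which in mice phosphorylates cryptochromes, and stood at 22.6 FPKM in distal and 40.4 FPKM in proximal crypts (1.79-fold higher in the proximal library), and the authors' deposited table did not call it (q 0.128). Of 19 kinases, ubiquitin ligases and other modifiers listed, 15 were measured and none was 2-fold apart, as 92.4% of all measured genes were not, with a median log2 ratio of 0.05 that turned negative when the libraries were rescaled (-0.045 with a median log2 ratio of 0 over all measured genes and -0.11 with equal upper quartiles). The most highly expressed was Csnk1a1, a casein kinase 1 gene, at 135 FPKM in distal and 146 FPKM in proximal crypts. Of the casein kinase genes whose proteins phosphorylate the period proteins, Csnk1d stood at 63.0 FPKM in distal and 51.6 FPKM in proximal crypts, and Csnk1e at 11.7 FPKM in distal and 12.95 FPKM in proximal crypts. Prkaa1, Csnk1d and Csnk1e were chosen after the values were seen. Of 12 measured coregulators of the loop none was 2-fold apart either, a count near the same background, and their median was 0.10, which also turned negative under both rescalings (-0.0011 and -0.070). Ddx5, an RNA helicase found in period protein complexes, was the most highly expressed at 450 FPKM in distal and 419 FPKM in proximal crypts.

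Genes known to be rhythmic in several rodent organs went both ways. Of 13 measured, 1 was higher in distal crypts by 2-fold or more and 2 were lower there by as much, beside 3.71% and 3.91% of all measured genes. By any amount 11 of the 13 were higher, beside 61.4% of all measured genes, and their median log2 ratio was 0.40. Tsc22d3, a gene induced by glucocorticoid and aldosterone, stood at 69.2 FPKM in distal and 9.27 FPKM in proximal crypts (7.46-fold). Pdk4, a kinase that restrains glucose oxidation, stood at 1.99 FPKM in distal and 11.2 FPKM in proximal crypts (5.64-fold higher in the proximal library). Ppara, a nuclear receptor of fatty acid oxidation that can act on Pdk4, stood at 4.33 FPKM in distal and 13.5 FPKM in proximal crypts (3.12-fold higher in the proximal library). The authors' deposited table called these 3, and Cdkn1a, a cell cycle inhibitor that was the most highly expressed of the list, at 105 FPKM in distal and 53.5 FPKM in proximal crypts.

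Of the measured hormone-responsive and immediate early genes, some of which can act on the period genes, most had larger FPKM values in distal crypts. Of 12 measured glucocorticoid-related genes, 10 were higher in distal crypts by any amount, beside 61.4% of all measured genes, with a median log2 ratio of 0.73. By 2-fold or more 4 were higher and none lower, beside 3.71% and 3.91% of all measured genes. Besides Tsc22d3 these were Dusp1, at 172 FPKM in distal and 67.0 FPKM in proximal crypts, and the metallothionein genes Mt2A and Mt1a. Mt2A stood at 42.0 FPKM in distal and 18.2 FPKM in proximal crypts, and Mt1a at 172 FPKM in distal and 81.8 FPKM in proximal crypts. The authors' deposited table called Tsc22d3 and Dusp1, and neither Mt2A (q 0.433) nor Mt1a (q 0.157). Hsd11b2, the enzyme that inactivates glucocorticoid in aldosterone target cells, was the most highly expressed of the list, at 525 FPKM in distal and 279 FPKM in proximal crypts. The 2 lower ones, named after the values were seen, were Fkbp5, a target of the receptor, at 3.44 FPKM in distal and 5.05 FPKM in proximal crypts, and Nr3c1, the gene of the glucocorticoid receptor itself, at 20.9 FPKM in distal and 25.2 FPKM in proximal crypts. Of 14 measured immediate early genes, 12 were higher in distal crypts by any amount, beside the same 61.4%, with a median of 0.65. By 2-fold or more 3 were higher and none lower, beside the same 3.71% and 3.91%. They were Atf3, at 39.7 FPKM in distal and 12.5 FPKM in proximal crypts, Jun, at 159 FPKM in distal and 64.8 FPKM in proximal crypts, and Fos, at 256 FPKM in distal and 108 FPKM in proximal crypts. Jund was the most highly expressed, at 287 FPKM in distal and 150 FPKM in proximal crypts. Several others were nearly level, among them Egr1, at 30.1 FPKM in distal and 31.7 FPKM in proximal crypts, and Nr4a1, at 11.5 FPKM in distal and 10.9 FPKM in proximal crypts, and Crem, a cAMP-responsive gene, stood at 6.79 FPKM in distal and 8.19 FPKM in proximal crypts. These 3 were named after the values were seen. Per1, which responds to both kinds of signal, differed by the 1.13-fold given above. The part of these genes in the values of the clock genes was not tested.

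**Figure D4:**
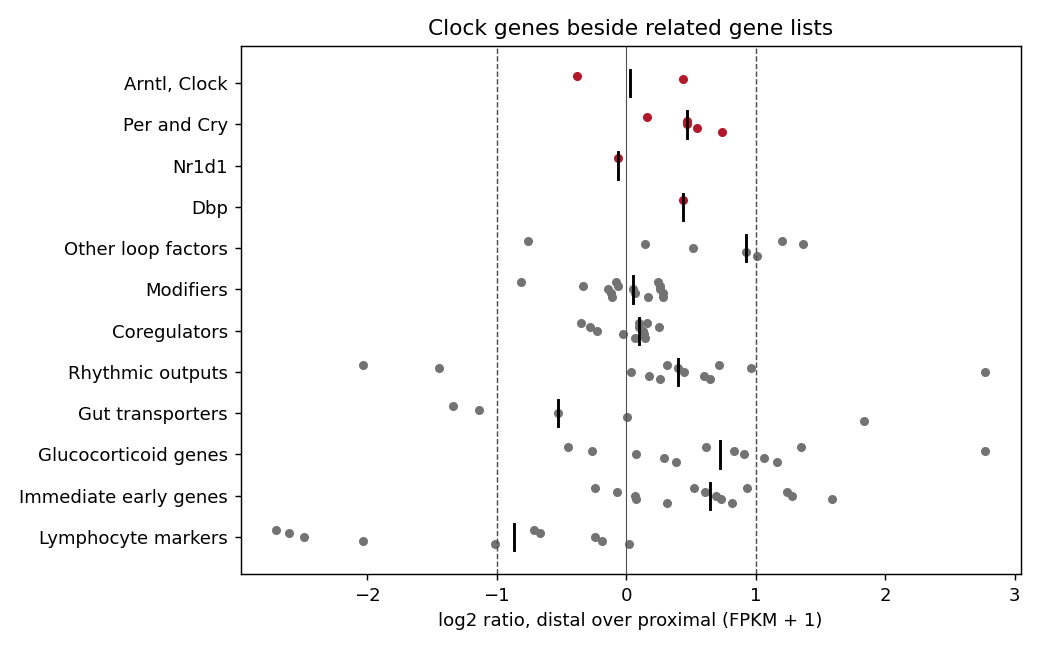
Log2 ratios of distal over proximal, with 1 FPKM added to each value, for the measured genes of each list, clock genes in red and other lists in grey, with a black bar at each median and dashed lines at 2-fold. The medians of modifiers (0.05) and coregulators (0.10) lie close to 0, with the modifier Prkaa1 at -0.81, the median of the Per and Cry genes lies at 0.47, and that of lymphocyte markers at -0.87.

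Markers of the tissue were checked beside these values. All 9 epithelial markers in the table were measured and less than 2-fold apart, as were 92.4% of all measured genes. By any amount 8 of the 9 were higher in distal crypts, beside 61.4% of all measured genes, with a median log2 ratio of 0.24. The 9 summed to 12769 FPKM in distal and 9942 FPKM in proximal crypts. Krt19 was the highest of them, at 3825 and 2629 FPKM in distal and proximal crypts. Of 10 measured lymphocyte markers, 5 were 2-fold or more lower in distal crypts and none higher, beside 3.91% and 3.71% of all measured genes. The 12 in the table summed to 16.5 FPKM in distal and 50.7 FPKM in proximal crypts. Among the 5 lower ones were the B-cell genes Cd79b, at 0.502 FPKM in distal and 8.80 FPKM in proximal crypts, and Ms4a1, at 0.202 FPKM in distal and 6.32 FPKM in proximal crypts. T-cell genes varied. Cd3g was level at 6.49 and 6.37 FPKM in distal and proximal crypts. Cd3e stood at 1.03 and 1.40 FPKM and Cd4 at 0.963 and 1.23 FPKM in distal and proximal crypts. Zap70 was among the 5 lower ones, at 0.316 FPKM in distal and 1.66 FPKM in proximal crypts. Markers of stroma summed over 8 genes to 8.33 FPKM in distal and 16.5 FPKM in proximal crypts, with Dcn and Lum listed at 0 in both. Vim made up most of this gap, with 7.07 FPKM in distal and 13.6 FPKM in proximal crypts. Pdgfrb, with 0.410 and 2.50 FPKM in distal and proximal crypts, was over 2-fold lower in distal crypts and was called (q 0.000930). The collagen genes did not share this direction clearly. Col1a1 had 0.445 and 0.170 FPKM, Col1a2 0.265 and 0.0899 FPKM, and Col3a1 0.140 and 0.147 FPKM in distal and proximal crypts. Smooth muscle markers summed over 5 genes to 8.84 FPKM in distal and 5.35 FPKM in proximal crypts. Most of that difference lay in Des, the desmin gene, at 2.91 FPKM in distal and 0.0398 FPKM in proximal crypts, which the authors' deposited table called at a q of 0.000857, while Myh11 stood at 1.37 and 1.36 FPKM and Tagln at 4.21 and 3.86 FPKM in distal and proximal crypts. Markers of endothelium summed over 3 genes to 1.49 and 1.84 FPKM in distal and proximal crypts, and those of enteric neurons and glia over 6 genes to 1.23 and 2.70 FPKM in distal and proximal crypts, with Sox10 listed at 0 in both. The part of other cell types in the clock gene values was not tested.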

How the data were processed

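RNA of 2 libraries, distal and proximal colon crypts, was analysed, and the 5 chromatin immunoprecipitation libraries were left aside. CASAVA, TopHat2 and the rn4 build are named for the RNA samples per the submitters' processing notes. The unit of the authors' values was read as FPKM, since the table names none per the file headers. They are not whole, and they sum to 463561 (distal) and 413026 (proximal). The sources used here give neither total reads nor the scaling between libraries. Each p-value and q-value was copied from the authors' deposited table. That table's other columns, a log2 fold change and a test statistic of opposite sign, were used as deposited. The log2 of the distal over the proximal FPKM, divided by that statistic and taken without sign, gave the implied standard error (the p-value equals the normal tail of the statistic to within 2.76e-06).

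Of 16492 rows, 23 marked low or failed and 1 repeated gene were left out. Loci were given from 1 by adding 1 to the start. Log2 ratios used a pseudocount of 1 FPKM, and 2-fold means a log2 ratio of 1 on that scale. Folds are plain ratios, given where both values reach 0.5 FPKM. Named were all members, all other loop factors in the table, and of the other lists the genes at least 2-fold apart (up to 6) and the highest. Of the marker lists, B-cell genes among those furthest apart, the highest epithelial gene and other genes picked after the values were seen were named. Some genes of these lists are not reported here. The members and lists were chosen with earlier results of these data known. List symbols not in the table were looked up by older symbols of the GRCr8 RefSeq table. Counting of genes past 2-fold was tested on simulated data with large planted changes and noise below the members' implied standard errors. That checks the counting and not its reliability on these data. Python 3.11.15, pandas 2.3.3 and numpy 2.4.6 were used.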

Additional observations from a re-analysis of the deposited data

How the results depend on the processing

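No paired analysis was possible because each region had 1 library. With pseudocounts of 0.1 and 5 FPKM, both rescalings of the distal library, no minimum, a minimum of 5 FPKM and the call of the authors' deposited table, the count of members at least 2-fold apart stayed at 0 in each direction. At 1.5-fold it was 1 in the higher direction, Per2, and 0 in the lower. The median log2 ratio of the 9 members ranged from 0.28 with equal upper quartiles, which moved the median of all measured genes from 0.09 to -0.06, to 0.49 with a pseudocount of 0.1 FPKM. The 36 log2 ratios of single members under the pseudocounts and rescalings kept their sign, though Per1 fell from 0.16 to 0.0053 with equal upper quartiles. Each moved by less than its implied standard error. For the rescalings this could not have come out otherwise. They multiplied the distal values by 0.932 and 0.888, a shift smaller than any member's implied standard error. The activator minus repressor difference ranged from -0.27 with a pseudocount of 5 FPKM to -0.52 with 0.1 FPKM, and was -0.032 with Dbp among the activators, whose median is then that of Dbp itself, the middle of 3 values. Without Nr1d1, a setting added after the data were seen, the median was 0.45 and the difference -0.44. Medians of the modifier list (-0.045 and -0.11) and of the coregulator list (-0.0011 and -0.070) changed sign under the rescalings to a median of 0 and to equal upper quartiles, settings added for the lists after the data were seen. The other 5 lists kept the sign of their medians. The loop factor list fell to a median of 0.49 with a pseudocount of 5 FPKM. Its median is the value of Tef, at 5.19 FPKM in distal and 2.26 FPKM in proximal crypts, and a larger pseudocount shrinks the ratios of low genes. The depth of the libraries is unknown here, so what it limits was not measured.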

Other observations

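Transporter genes known to be rhythmic in rodent intestine were mostly not higher in the distal library. Of 8 listed genes, 5 were measured, with a median log2 ratio of -0.53. Of these, 1 was higher in distal crypts by 2-fold or more and 2 were lower there by as much, beside 3.71% and 3.91% of all measured genes. By any amount 2 of the 5 were higher, beside 61.4% of all measured genes. Abcg2, an efflux pump of the apical membrane, stood at 13.9 FPKM in distal and 36.5 FPKM in proximal crypts (2.63-fold higher in the proximal library) and was called by the authors' deposited table at a q of 0.00147. Abcb1a, the P-glycoprotein gene, stood at 13.9 FPKM in distal and 31.7 FPKM in proximal crypts and was not called. Its listed locus is shared by 11 genes, Abcb1a included, whose names are not given here, so reads of these genes may be mixed. Slc15a1, the peptide transporter, stood at 3.41 FPKM in distal and 0.231 FPKM in proximal crypts. The proximal value is too low for a fold, and the authors' deposited table did not call it (q 0.0745). Slc9a3, the apical sodium and proton exchanger and the highest of the list, stood at 68.8 FPKM in distal and 99.6 FPKM in proximal crypts. Slc5a1, the sodium and glucose cotransporter, was level at 19.1 and 19.0 FPKM in distal and proximal crypts, and Slc2a2 was listed at 0 in both.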
